A study of Rattus norvegicus with 6 samples.

Results

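The enzymes that break down phenylalanine and tyrosine were followed in kidney RNA as a set of 8 genes, Pcbd1, Qdpr, Tat, Hpd, Hgd, Gstz1, Fah and Ddc, chosen by gene symbol. All 8 were among the 17051 genes listed in the files. Of these, 7 reached an estimated count of 30 in some rat and were among the 11553 genes tested, whereas Tat stayed below this minimum. Kidney RNA of male Sprague Dawley rats was sequenced after poly(A) selection, with 1 library for each animal. The AL group (rats 61, 71 and 88) received the normal diet, standard laboratory chow ad libitum. The HD group (rats 64, 67 and 69) received the hyperammonemic diet, in which a mixture of amino acids resembling the composition of hemoglobin was added to the chow for a week. Surgery under isoflurane, with an infusion of para-amino hippuric acid to measure renal blood flow, followed the diet in the study's animals. The comparison of HD with AL therefore shows whether a week of amino acid load was accompanied by a different RNA level of these enzymes.

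Phenylalanine is degraded by way of tyrosine. Its hydroxylation consumes tetrahydrobiopterin, which the products of Pcbd1 and Qdpr regenerate. Tyrosine then loses its amino group to a keto acid, and the resulting hydroxyphenylpyruvate passes through the enzymes encoded by Hpd, Hgd, Gstz1 and Fah to end as fumarate and acetoacetate, which the cell can burn. A separate branch leads from the hydroxylated tyrosine derivative L-DOPA to dopamine through the decarboxylase encoded by Ddc. The proximal tubule of the kidney is a known site both of amino acid breakdown and of dopamine formation from L-DOPA taken up from the filtrate.

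The start regions of 3 of the genes are given because their levels differed most and least between the diets: Ddc and Hpd, with the largest differences, and Hgd, with the smallest. The sequences are from RefSeq, build GRCr8, run 5′ to 3′ from 250 bases before the start of the gene to 50 bases within it, and were found for 8 of 8 genes. They could not be tied to the rn5 transcripts that were counted, so for Ddc, with 3 transcripts of different starts, the window may belong to another start than the one measured. Capitals mark CCAAT boxes (letters CCAAT, searched on both strands), a common promoter element chosen for display after the values were known.
Ddc, chr14:90682734-90683033, minus strand: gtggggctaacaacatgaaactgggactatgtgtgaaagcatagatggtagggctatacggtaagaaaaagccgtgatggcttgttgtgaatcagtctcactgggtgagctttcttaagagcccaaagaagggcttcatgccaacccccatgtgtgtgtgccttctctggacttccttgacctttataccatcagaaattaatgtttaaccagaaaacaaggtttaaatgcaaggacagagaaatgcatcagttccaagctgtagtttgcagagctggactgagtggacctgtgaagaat
Hpd, chr12:39041996-39042295, plus strand: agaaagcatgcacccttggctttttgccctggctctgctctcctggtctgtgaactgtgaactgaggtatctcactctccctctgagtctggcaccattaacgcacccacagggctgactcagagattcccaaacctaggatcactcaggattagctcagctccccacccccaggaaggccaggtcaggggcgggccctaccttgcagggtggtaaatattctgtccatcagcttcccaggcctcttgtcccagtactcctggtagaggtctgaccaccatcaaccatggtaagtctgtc
Hgd, chr11:76643718-76644017, minus strand: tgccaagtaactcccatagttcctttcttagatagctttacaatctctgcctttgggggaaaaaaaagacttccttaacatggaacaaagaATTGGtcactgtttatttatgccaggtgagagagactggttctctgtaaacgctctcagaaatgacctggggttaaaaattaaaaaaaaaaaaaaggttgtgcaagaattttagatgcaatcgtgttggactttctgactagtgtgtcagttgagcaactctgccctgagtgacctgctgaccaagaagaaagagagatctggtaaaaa
Hgd held 1 CCAAT box, which began at position -159 from the start on the antisense strand, and this run of letters was not found in the windows of Ddc and Hpd. Of the 8 members, 3 held the motif (Qdpr, Tat and Hgd), against 37.7% of 27457 start regions of the same length. These matches describe letters only.

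The estimated counts summed to between 12499945 and 30466461 in a rat, with the shallowest and the deepest library both in the HD group. The tissue carried the markers of a kidney. The 17 listed proximal tubule markers summed to between 33265 and 39626 CPM (counts scaled to library size after TMM normalization) in the AL rats and to between 37080 and 45494 in the HD rats. Of the 16 that were tested, 14 were higher in HD with a median log2 fold change (log2FC, HD over AL) of 0.37. An unadjusted p below 0.05 was found for 6, each of them higher. The shares of all tested genes were 51.3% higher and 4.66% higher at this p. In whole tissue, fewer cells of a type and less RNA per cell cannot be told apart. The 8 liver markers summed to 3.24 to 3.81 CPM in AL and to 3.50 to 4.35 in HD, and the 6 markers of the adrenal medulla to at most 0.610 CPM in any rat. Markers of podocytes, summing to 54.9 to 128 CPM in AL and 193 to 417 in HD, and of the distal convoluted tubule, at 63.0 to 131 and 191 to 699, were higher in HD without overlap, while leukocyte markers had a median log2FC of -1.61 and overlapped. Summed markers of intercalated cells (827 to 981 CPM in AL, 690 to 812 in HD) and of the adrenal cortex (9.53 to 12.8 and 8.19 to 9.42) were lower in HD without overlap. The intercalated sum was lower through its most abundant marker, Slc4a1 (log2FC -0.56). Of the 5 intercalated markers, 4 were higher in HD, and their median log2FC was 0.27. The cell types' part in the results was not tested.

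Levels of different genes were compared as TPM, which RSEM scales to transcript length. Averaged over the 6 rats, Hgd was highest at 682 TPM, followed by Fah at 662, Qdpr at 558, Hpd at 497, Pcbd1 at 356 and Gstz1 at 239 TPM. All 6 were at percentile 95.8 or higher of the mean TPM of all listed genes. Ddc stood far lower at 6.06 TPM, at percentile 50.6, and the mean TPM of Gstz1 was 39.4 times higher. Tat was at 0.0633 TPM. Hgd and Fah did not hold a fixed order, since Hgd was higher in 3 of 3 AL rats but in only 1 of 3 HD rats. In AL rat 61 these 2 genes were practically equal, with 709.53 TPM for Hgd and 709.44 TPM for Fah. Qdpr was above Hpd in 5 of 6 rats, the exception being an HD rat. All other neighbours kept their order in 6 of 6 rats.

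**Figure D1:**
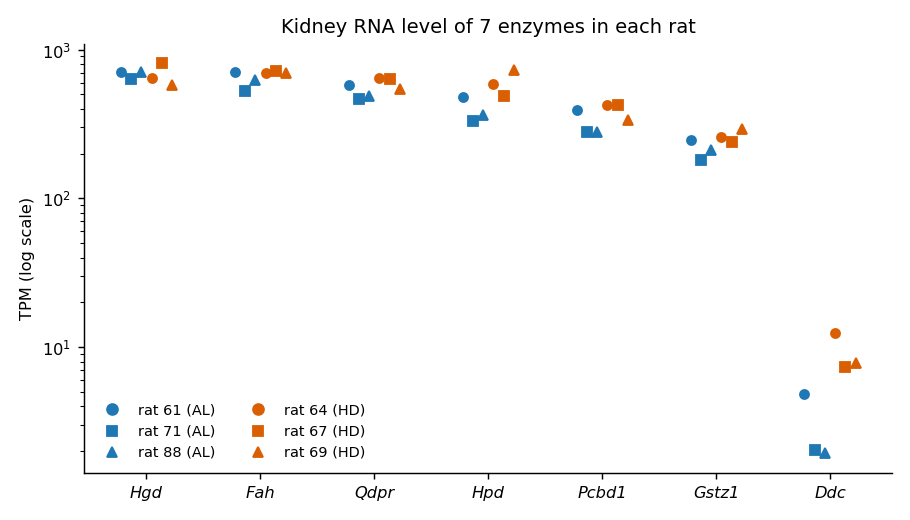
TPM on a log scale (y axis) of the 7 tested enzymes (x axis, ordered by mean level), with a point for each rat (blue AL, orange HD). The enzymes from Hgd to Gstz1 lie between 182 and 807 TPM in every rat, while Ddc lies between 1.93 and 12.4 TPM. Tat, with at most 0.13 TPM, is not drawn.

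With edgeR's quasi-likelihood test, none of the 7 tested enzymes had an adjusted p of at most 0.05, as was true of all tested genes (0.0%). Hpd and Ddc had an unadjusted p below 0.05, both higher in HD, which makes 2 of 7 where 10.6% of all tested genes passed this value and 4.66% passed it in this direction. This count was 6 of 7, all but Hgd, without rat 61 (6.32% of all tested genes in this direction) and 1 of 7 without rat 69 (6.21%), rat 71 (4.15%) or rat 88 (2.23%). The log2FC was above 0 for 7 of 7 enzymes, against 51.3% of all tested genes, and its median was 0.35 against 0.0067. The median of the enzymes was 0.55 without rat 61 and 0.20 without rat 71. After scaling by library size alone, 6 of 7 were above 0, with Hgd on the other side. The study itself used DESeq2, both to normalize its counts and to test for differential expression. Here DESeq2 gave 1 of 7 enzymes an adjusted p of at most 0.05, Ddc. It called 1.58% of 11543 genes, and 0.806% as higher in HD. The rats of the HD group lay above all rats of the AL group in Hpd and Ddc, against 7.25% of all tested genes. An exact permutation test of 3 against 3 rats cannot give a two-sided p below 0.1. The p values of edgeR and DESeq2 set the group difference against the variation between rats of the same group. The labels name separate animals but no cages or days, which therefore could not be taken into account.

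**Figure D2:**
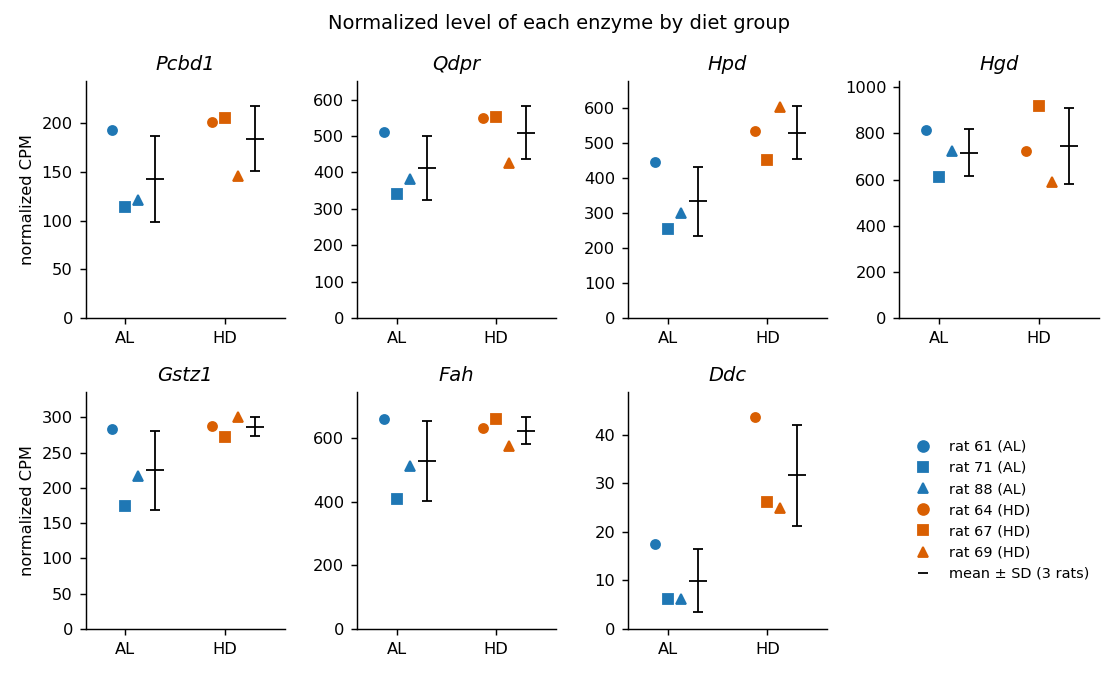
Normalized CPM (y axis, from 0) of each tested enzyme in the AL and HD groups (x axis), with a point for each rat and the mean ± SD of 3 rats beside them. HD rats lie above AL rats in Hpd and Ddc, and rat 61 of the AL group lies within the HD range in Pcbd1, Qdpr, Hgd, Gstz1 and Fah.

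Ddc, the aromatic amino acid decarboxylase that forms dopamine, showed the largest difference of the 7. It lies on chromosome 14 of rn5, minus strand, from 91689894 to 91793700. Its level was 17.5, 6.10 and 6.22 CPM in AL rats 61, 71 and 88, and 43.6, 26.2 and 25.0 CPM in HD rats 64, 67 and 69. Rat 61 was thus nearest to the HD group, and rat 64 stood above the other HD rats. The means were 9.93 ± 6.53 CPM in AL and 31.6 ± 10.4 in HD (SD, n = 3 each), and the log2FC was 1.68 (standard error, SE, 0.45, unadjusted p = 0.00639, adjusted p = 0.398 from edgeR). Higher levels were found in 3 of 3 HD rats (exact permutation test, two-sided, p = 0.1). With DESeq2 there was a log2FC of 1.67 (SE 0.43, adjusted p = 0.0128). Without rat 61 the log2FC was 2.35 (adjusted p = 0.0986 from edgeR), and with each rat left out in turn it was never below 1.38.

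The files list 3 transcripts of Ddc, of 15, 14 and 15 exons, that end together and differ at their 5′ end. The transcript with the outermost start, NM_012545, of 5134 bases, took 100% of the gene's estimated counts in 5 rats and 96.5% in rat 64. The posterior mean of RSEM spread more of them to the shorter forms, with 59.2% to 76.2% on this transcript in AL and 80.9% to 93.8% in HD. These shares rest on between 94 and 782 estimated counts of the gene. The log2FC of the gene as a whole was 1.68 with either kind of count.

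L-DOPA itself is made from tyrosine by the product of Th, which had 0 counts in all 6 rats. Given the depth, this allows up to 3 counts in a library, or between 0.0985 and 0.240 CPM before TMM normalization. On the way out of the cell's dopamine pool, Maoa, a monoamine oxidase of the mitochondrial membrane, was at 23.5 ± 1.51 CPM in AL and 24.9 ± 4.90 in HD (SD, n = 3 each). Its log2FC was 0.08 (SE 0.16). Slc22a2, an organic cation transporter of the basolateral membrane, was abundant and similar, with 1744 ± 56.3 CPM in AL and 1851 ± 121 in HD (SD, n = 3 each). Of the 12 tested genes listed for dopamine handling, 2 had an unadjusted p below 0.05, against 10.6% of all tested genes. These were Slc22a3, a related cation transporter with only 3 to 5 counts in AL rats and 3, 33 and 114 counts in rats 64, 67 and 69 (log2FC 2.73, SE 0.87), and the aldehyde reductase Akr1a1 (0.50, SE 0.21). Their adjusted p values were 0.406 and 0.465, and in neither gene did all HD rats lie above all AL rats. Dopamine receptors were not tested, since all listed ones stayed below the count minimum.

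Hpd encodes the dioxygenase that turns hydroxyphenylpyruvate into homogentisate, the step that commits tyrosine to breakdown. It lies on chromosome 12 of rn5, plus strand, from 40729052 to 40740668. Its level was 444, 255 and 300 CPM in AL rats 61, 71 and 88 and 532, 450 and 601 CPM in HD rats 64, 67 and 69. The groups did not overlap, but rats 61 and 67 were nearly equal. Means were 333 ± 99.0 CPM in AL and 528 ± 75.5 in HD (SD, n = 3 each). The log2FC was 0.66 (SE 0.22, unadjusted p = 0.0189, adjusted p = 0.406 from edgeR), and the exact permutation test gave p = 0.1. DESeq2 gave an adjusted p of 0.127. Leaving out 1 rat at a time gave log2FC values from 0.51 (without rat 71) to 0.93 (without rat 61), and the unadjusted p rose above 0.05 without rat 69 (0.0573), rat 71 (0.0568) or rat 88 (0.0637), all from edgeR.

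The next enzyme, homogentisate dioxygenase, encoded by Hgd on chromosome 11 of rn5 (minus strand, 69075116 to 69126725), showed no such difference. Hgd was at 814, 609 and 725 CPM in AL rats 61, 71 and 88 and at 725, 916 and 591 CPM in HD rats 64, 67 and 69. The highest and the lowest rat of all 6 were both HD rats. With means of 716 ± 103 and 744 ± 163 CPM (SD, n = 3 each), the log2FC was 0.06 (SE 0.19, adjusted p = 0.960 from edgeR). It fell on either side of 0 when single rats were left out, from -0.12 to 0.20. As a ratio of TPM, Hpd over Hgd was 0.676, 0.518 and 0.512 in the AL rats and 0.910, 0.609 and 1.26 in HD rats 64, 67 and 69. These groups overlapped (two-sided exact permutation test on the log2 ratio, p = 0.2), and Hpd exceeded Hgd only in rat 69. The pair was chosen after the values were seen.

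Gstz1 and Fah complete the chain, as maleylacetoacetate isomerase, a glutathione transferase of the zeta class, and as the hydrolase that releases fumarate and acetoacetate. Gstz1 (chromosome 6 of rn5, plus strand, 120460963 to 120471409) was at 284, 174 and 217 CPM in AL rats 61, 71 and 88 and at 287, 272 and 300 CPM in HD rats 64, 67 and 69. The HD rats were close together, while AL rat 61 reached their range. Its log2FC was 0.35 (SE 0.18, unadjusted p = 0.0913, adjusted p = 0.548). Fah (chromosome 1 of rn5, minus strand, 147640316 to 147662920) was at 660, 411 and 515 CPM in the AL rats in the same order and at 633, 662 and 577 CPM in the HD rats. Again rat 61 fell among the HD rats, and the log2FC was 0.24 (SE 0.18, adjusted p = 0.712). With single rats left out, the log2FC ranged from 0.20 (without rat 71) to 0.55 (without rat 61) for Gstz1 and, with the same rats at the ends, from 0.09 to 0.43 for Fah. The summed TPM of Hpd, Hgd, Gstz1 and Fah was 2147, 1680 and 1904 in AL rats 61, 71 and 88 and 2196, 2256 and 2292 in HD rats 64, 67 and 69. All HD rats were above all AL rats in this sum, by little in the case of rat 61. Taken singly, only Hpd was without overlap, while Hgd, Gstz1 and Fah overlapped. By CPM, 7.25% of all tested genes had every HD rat above every AL rat.

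The genes of tetrahydrobiopterin recycling varied together. Pcbd1, the pterin carbinolamine dehydratase, lies on chromosome 20 of rn5 (plus strand, 32486249 to 32491730). It was at 193, 114 and 121 CPM in AL rats 61, 71 and 88 and at 201, 205 and 146 CPM in HD rats 64, 67 and 69. Qdpr, the dihydropteridine reductase, lies on chromosome 14 (plus strand, 70207866 to 70221468) and was at 512, 342 and 383 CPM in the same AL rats and 549, 553 and 426 CPM in the HD rats. In both genes rat 61 was higher than rat 69, so the groups overlapped. The log2FC was 0.37 for Pcbd1 (SE 0.23, adjusted p = 0.639) and 0.30 for Qdpr (SE 0.19, adjusted p = 0.629). Without rat 61 these values were 0.65 and 0.49, and without rat 71 they were 0.23 and 0.19. Their ratio in TPM stayed between 0.570 and 0.681 in all 6 rats. Of 5 other tested genes of tetrahydrobiopterin synthesis and use, 2 were higher and 3 lower in HD, with a median log2FC of -0.02. Spr and Pts, the reductase and synthase that finish the cofactor, had log2FC values of -0.02 (SE 0.13) and -0.14 (SE 0.15). Gch1, which starts its synthesis, had at most 24 counts in a rat and was not tested. The 1 gene of this list with an unadjusted p below 0.05 was Akr1b1, aldose reductase, better known for making sorbitol in the renal medulla. Its level was 23.3, 99.0 and 390 CPM in AL rats 61, 71 and 88 and between 23.3 and 35.3 CPM in the HD rats (log2FC -2.63, SE 0.87, adjusted p = 0.406). The 2 AL rats in which it was high were also the rats with the lowest levels of Pcbd1, Qdpr, Hpd, Gstz1, Fah and Ddc, and its part in these results was not tested.

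Tat, tyrosine aminotransferase, the enzyme of the first step in liver, was barely present (chromosome 19 of rn5, minus strand, 52499259 to 52509759). It had 1, 1 and 0 estimated counts in AL rats 61, 71 and 88 and 2, 3 and 1 in HD rats 64, 67 and 69. The 2 counts of the AL group correspond to 0.0452 CPM (exact Poisson 95% interval 0.00548 to 0.163) and the 6 counts of the HD group to 0.0937 CPM (0.0344 to 0.204). These intervals cover counting error only and overlap, so no difference was detectable at this depth. Other aminotransferases that can act on aromatic or related amino acids were abundant. Mean TPM over the 6 rats was 4809 for Aadat, 358 for Ccbl1, 256 for Got2 and 145 for Got1. Ccbl1, a cysteine conjugate beta-lyase with kynurenine aminotransferase activity, was at 311, 234 and 285 CPM in AL rats 61, 71 and 88 and at 409, 386 and 313 CPM in HD rats 64, 67 and 69. HD rats were above AL rats by a margin that was small for rats 69 and 61 (log2FC 0.42, SE 0.16, unadjusted p = 0.0309, adjusted p = 0.426). It was the 1 gene of 6 tested in this list with an unadjusted p below 0.05, against 10.6% of all tested genes. Got2, the mitochondrial aspartate aminotransferase, had a log2FC of 0.25 (SE 0.12), and the cytosolic Got1 one of 0.01 (SE 0.29).

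**Figure D3:**
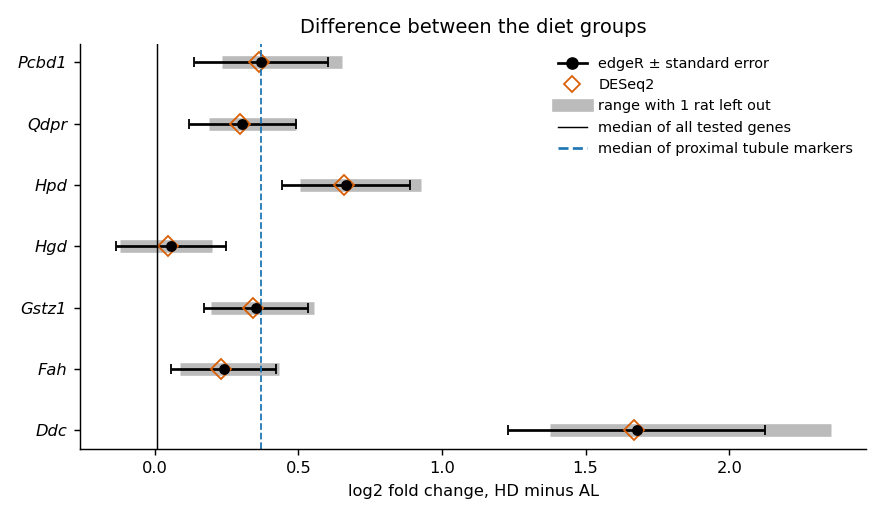
Log2FC of HD over AL (x axis) for each tested enzyme (y axis): black points with bars are edgeR's estimate ± SE, diamonds are DESeq2, and grey bars span the fits with single rats omitted, 6 in number. The solid line marks the median of all tested genes at 0.0067 and the dashed line the median of the proximal tubule markers at 0.37, near which Pcbd1, Qdpr, Gstz1 and Fah lie.

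The median of the proximal tubule markers moved along with that of the set, but single markers differed widely. The log2FC of the 16 tested markers ran from -0.06 for Kap and -0.05 for Cubn to 1.07 for Slc22a6 and 3.20 for Slc22a8. Their median is therefore not a shift that all of them shared. Against their own mean over the 6 rats, the median of the 7 enzymes was 0.18, -0.48 and -0.24 on the log2 scale in AL rats 61, 71 and 88, and the median of the 16 tested markers was 0.02, -0.27 and -0.16. In HD rats 64, 67 and 69 the medians were 0.28, 0.29 and 0.02 for the enzymes and 0.38, 0.24 and 0.09 for the markers. Rats 71 and 88 were low and rats 64 and 67 high in both. When the marker median of 0.37 was subtracted, the log2 difference that remained was 1.31 for Ddc and 0.30 for Hpd, and 0.00062 for Pcbd1. It was -0.02 for Gstz1, -0.06 for Qdpr, -0.13 for Fah and -0.31 for Hgd. No test was made of these differences, and the markers' part in the result was not tested.

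**Figure D4:**
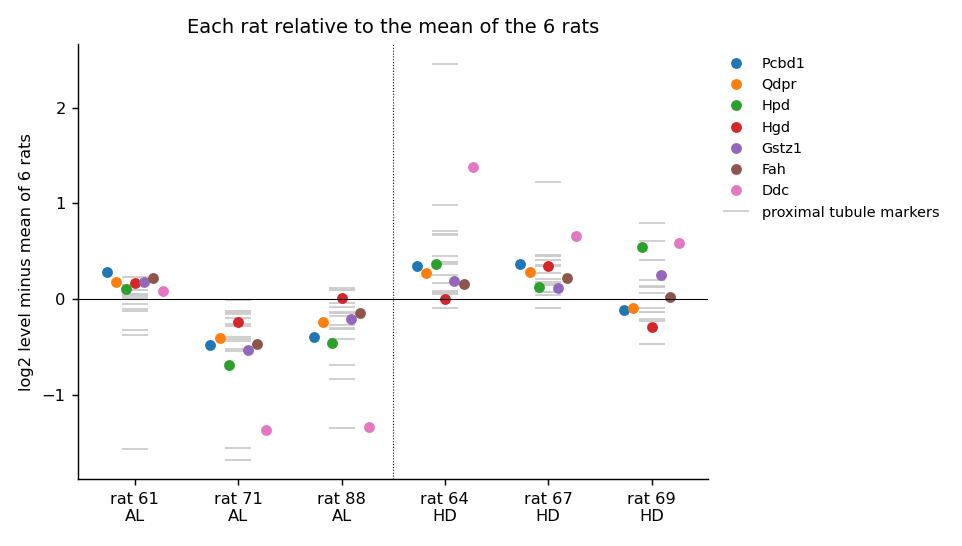
Log2 CPM of each tested enzyme (coloured points) and each tested proximal tubule marker (grey bars) relative to that gene's own average in all rats (y axis) in each rat (x axis, AL left and HD right of the dotted line). In rats 71 and 88 most points lie below 0, and Ddc is the enzyme with the widest spread.

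Among themselves, the 7 enzymes were positively correlated over the 6 rats, with Pearson's r of log2 CPM from 0.13 to 0.99 and a median of 0.81 over 21 pairs. These points share the libraries, the diet groups and the makeup of the tissue. Pcbd1 and Qdpr were closest (r = 0.99), followed by Hpd with Gstz1 (r = 0.96). Hgd stood apart, with r from 0.13 for Hpd to 0.73 for Qdpr, whereas the 15 pairs without Hgd had r of at least 0.71.

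Over the same 6 rats and 9380 genes with a mean of at least 5 CPM, Ddc was most like Atic, an enzyme of purine synthesis, Mrpl37, a protein of the mitochondrial ribosome, and Pc, pyruvate carboxylase (r = 0.99 for each). Their log2FC values of 0.23, 0.25 and 0.64 were smaller than that of Ddc. Near Hpd were the complex I subunit Ndufv1 and Oscp1, and to Gstz1 they were Srp68, Spsb4 and Mpv17l2. Fah was closest to Fam108a1, Naprt1 of NAD synthesis and Chchd10. Hgd followed Dnajb11, a chaperone of the endoplasmic reticulum, Pdap1 and Sec11c of the signal peptidase. The nearest to Pcbd1 were Dhrs4, Qdpr and the splicing factor Prpf19, and to Qdpr they were Tmem70, Coq3 of ubiquinone synthesis and Prpf19. All correlations of these named genes had r of at least 0.99 after rounding. They were picked as the highest among 9380 genes over only 6 rats. Such a search can give high r by itself, and no test was made of them.

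Fumarate and acetoacetate, the end products, enter central metabolism. Of 9 tested genes listed for their fate, 7 were higher and 2 lower in HD, where 51.3% of all tested genes were higher. The median log2FC of the 9 was 0.19, and 0 had an unadjusted p below 0.05. DESeq2 also gave 0 adjusted calls here. Fh, fumarate hydratase, was at 304 ± 52.4 CPM in AL and 379 ± 49.7 in HD, and Oxct1, which activates acetoacetate, at 1154 ± 135 and 1348 ± 89.1 (SD, n = 3 each). Oxct1 was higher in 3 of 3 HD rats than in any AL rat, with an unadjusted p of 0.151.

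Transporters that carry aromatic amino acids, or the exchangers and heavy chains they work with, held 13 tested genes, 11 of them higher in HD, with a median log2FC of 0.31. An unadjusted p below 0.05 was found for 3, all higher. Among all tested genes, 51.3% were higher and 4.66% were higher at this p. Slc7a8, an exchanger of large neutral amino acids in the basolateral membrane, was at 10.1, 10.4 and 7.81 CPM in AL rats 61, 71 and 88 and at 22.8, 15.2 and 12.0 CPM in HD rats 64, 67 and 69 (log2FC 0.81, SE 0.26, adjusted p = 0.406). Slc7a7, an exchanger for cationic and neutral amino acids, had a log2FC of 0.60 (SE 0.23, adjusted p = 0.425). In both genes the HD rats were above the AL rats.

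Transcription factors known to act on liver and proximal tubule genes held 9 tested genes, 6 of them higher in HD. An unadjusted p below 0.05 was found for 3 of them, all higher. The shares over all tested genes were 51.3% higher and 4.66% higher at this p. Cebpa was at 6.04, 5.43 and 4.76 CPM in AL rats 61, 71 and 88 and at 8.83, 9.39 and 8.86 CPM in HD rats 64, 67 and 69, a log2FC of 0.74 (SE 0.19, adjusted p = 0.398). The groups were well apart compared with the spread within each. Hnf4a, itself among the proximal tubule markers, was at 690 ± 37.5 CPM in AL and 867 ± 57.6 in HD (SD, n = 3 each; log2FC 0.33, adjusted p = 0.409). Nr1i2, a nuclear receptor for foreign compounds, had a log2FC of 0.42 (SE 0.14, adjusted p = 0.406).

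Glutathione transferases of other classes than Gstz1 held 19 tested genes, 15 of them higher in HD, with a median log2FC of 0.22. Gsta3, of the alpha class, was higher (log2FC 0.71, SE 0.24), and the omega class members Gsto1 and Gsto2 were lower (-0.34, SE 0.12, and -1.12, SE 0.42). Their adjusted p values were between 0.406 and 0.425. Alpha class genes are close in sequence, so the division of reads among them is uncertain. Over all 7 lists, 73 genes were tested, of which 55 were higher and 18 lower in HD with a median log2FC of 0.22. An unadjusted p below 0.05 was found for 10 higher and 3 lower genes. Among all 11553 tested genes, 51.3% were higher, 4.66% were higher at this p, and 686 genes were lower at it. The tested proximal tubule markers had a median log2FC of 0.37. None of the 73 had an adjusted p of at most 0.05 from edgeR.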

How the data were processed

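Kidney RNA of 6 rats was sequenced, 3 in each diet group as given by the labels. Per the labels and the paper's methods, reads (TruSeq v2, poly(A) selection, single end) were assigned with RSEM 1.1.15 at default parameters to UCSC gene models of rn5. For every transcript the authors deposited an expected count, not normalized, its posterior mean (also an estimated count) and TPM. Read filters are not given in the sources used here.

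Expected counts were summed per gene symbol and rounded. Genes that reached a count of 30 in some rat were tested with edgeR 4.0.16 (R 4.3.3, TMM, quasi-likelihood test, diet as the only factor) and Benjamini-Hochberg adjustment over 11553 genes. DESeq2 1.42.0 and limma 3.58.1 (log2 of TPM + 0.5) were alternatives. The standard error was the absolute log2 fold change divided by the square root of F. CPM were TMM-normalized. Permutation tests used log2(CPM + 0.5). The edgeR step was tested on simulated data. Named genes were the members, list genes with an unadjusted p below 0.05 or covering a step of the pathway, and the 3 genes most correlated with each member. The members and lists were chosen with earlier results of these data known. Results of a few genes that it covers are left out. Depth ranged from 12499945 to 30466461 counts.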

Additional observations from a re-analysis of the deposited data

How the results depend on the processing

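No paired analysis was possible because the rats carry different numbers in the 2 groups. Under DESeq2, 182 genes in all and 1 of the 7 enzymes passed the adjusted threshold, the latter being Ddc with a log2FC of 1.67. When every gene with a count above 0 was kept, 2 genes in all passed it. Leaving out 1 rat at a time gave 0 to 4 genes in all at the adjusted threshold (2 without rat 61, 4 without rat 64, 2 without rat 67; 0 of the 7 enzymes in each fit) and 606 (without rat 88) to 1744 (without rat 69) at an unadjusted p below 0.05. Of the enzymes, 1 to 6 were then higher at an unadjusted p below 0.05. The 6, all but Hgd, were found without rat 61, where 6.32% of all tested genes passed in this direction, and 1 was found without rat 69 (6.21%), rat 71 (4.15%) or rat 88 (2.23%). Between 4 and 16 list genes were higher (4 without rat 64 or 71, 16 without rat 61 or 69) and 0 to 5 lower (0 without rat 67 or 88, 1 without rat 64, 5 without rat 61). The log2FC of Hgd turned to -0.025 with library size alone, to -0.029 with limma on log2 TPM, and ranged from -0.12 (without rat 67) to 0.20 when single rats were left out; without rat 71 it was -0.05. Relative to the proximal tubule markers, Fah was at -0.13, Gstz1 at -0.018, Qdpr at -0.065 and Hgd at -0.31, and Hpd fell to 0.30 and Pcbd1 to 0.00062, by construction of that scale. The cause of the other changes was not tested. Thinning every library to the smallest total left the log2FC of Ddc at 1.70 and that of Hpd at 0.66. Depth limits what can be said of Tat, with at most 3 counts in a rat.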
